A study of Mus musculus with 6 samples.

Results

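The genes described here are 9 members of the fibroblast growth factor (Fgf) system of mouse embryonic stem cells (ESCs): the ligand genes Fgf4, Fgf8, Fgf15, Fgf10 and Fgf17, and the receptor genes Fgfr1, Fgfr2, Fgfr3 and Fgfr4. They were taken by name, through their NCBI gene IDs, from 18857 genes with reads in at least 1 of 6 libraries. All 9 had reads in each library, except that Fgf8 had no row, and so 0 reads, in 1 of them. PolyA RNA was sequenced in 1 library per group, so no difference between 2 libraries has a replicate check. The groups were wild-type KH2 ESCs with the Mek inhibitor PD0325901 for 48 hours, untreated KH2 ESCs, and 4 states of a KH2 line labelled iErk1; Erk KO, in which an Erk1 gene is switched on by doxycycline (Dox). The Erk KO line was sampled after 96 hours off Dox with PD0325901 in the last 48, after 96 hours off Dox alone, after 48 hours off Dox, and while still on Dox. All groups share the C57BL/6 x 129 background. The labels used here do not say how the Erk genes were removed, whether the line is 1 clone, what dose of the inhibitor was used, or whether feeder cells were present.

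Fgf ligands bind cell-surface receptor tyrosine kinases together with heparan sulfate chains, and the active receptor signals through adaptor proteins to Ras, Raf, Mek and the Erk kinases. In mouse ESCs Fgf4 is the ligand best known for driving this route. The cells make it themselves, under the control of the factors Oct4 and Sox2, and the resulting Erk activity moves them out of the naive state. Fgfr1 is the main receptor of these cells and Fgfr2 that of the primitive endoderm. Fgf8 and Fgf17 belong to the same ligand subfamily and act in gastrulation and brain patterning, Fgf10 is a mesenchymal ligand that signals to epithelia, and Fgf15 is a secreted factor of the embryonic brain and, as a hormone, of the intestine.

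Shown first are the promoters of the 2 ligand genes past the size limit after Dox withdrawal, Fgf4 at 48 hours and Fgf10 at 96. Over all genes tested 4.89% passed at 48 hours and 9.68% at 96 hours. Neither gene passed the edgeR test of a withdrawal effect common to both times. The sequences are RefSeq's, build GRCm38.p6, 250 bases before to 50 after the annotated start, plus strand, at chr7:144861136-144861435 for Fgf4 and chr13:118714449-118714748 for Fgf10. Capitals mark the TATA box letters TATATA, the GC box letters GGGCGG and the CCAAT box letters, each searched on both strands.
Fgf4 promoter: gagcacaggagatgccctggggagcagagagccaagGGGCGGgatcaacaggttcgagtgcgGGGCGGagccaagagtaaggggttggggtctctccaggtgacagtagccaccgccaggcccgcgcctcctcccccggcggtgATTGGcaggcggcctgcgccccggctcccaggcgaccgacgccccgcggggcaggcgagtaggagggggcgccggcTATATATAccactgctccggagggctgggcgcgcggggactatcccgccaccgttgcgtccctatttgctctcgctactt
Fgf10 promoter: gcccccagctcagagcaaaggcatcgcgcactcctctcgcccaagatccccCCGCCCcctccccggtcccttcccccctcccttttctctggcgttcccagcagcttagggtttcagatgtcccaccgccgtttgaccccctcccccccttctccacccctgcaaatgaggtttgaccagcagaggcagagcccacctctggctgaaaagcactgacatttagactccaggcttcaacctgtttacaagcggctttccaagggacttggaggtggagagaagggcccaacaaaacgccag
In the Fgf4 window 2 overlapping TATA matches began 30 and 28 bases before the start, 1 CCAAT match lay 106 bases before it, and 2 GC box matches lay 214 and 188 bases before it. The Fgf10 window held 1 GC box match, 199 bases before the start, and neither of the other motifs. Of 32851 promoter windows of the same length, 5.67% held TATATA, 35.7% held GGGCGG and 37.4% held CCAAT. The octamer ATGCAAAT, the binding letters of Oct factors, was in 1.74% of all windows and in neither of these. These matches describe letters and not binding, and sequence outside the windows was not searched. Entries were present for 5 of the 9 members (Fgf4, Fgf10, Fgfr2, Fgfr3 and Fgfr4), and Fgf8, Fgf15, Fgf17 and Fgfr1 had none.

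Library totals ran from 9.05 to 9.95 times 1e6 reads assigned to genes. Levels are given as RPKM, which divides reads by gene length in kilobases and by library reads in units of 1e6, with exact 95% Poisson intervals of counting error. Mapk3, the Erk1 gene that Dox maintains, was at 52.8 RPKM in treated and 56.4 RPKM in untreated KH2 cells. In the Erk KO line it was at 14.8 RPKM with Dox, 6.86 RPKM after 48 hours and 6.75 RPKM after 96 hours, and at 9.18 RPKM with PD0325901. The files do not show which exons the Mapk3 reads cover. All 8 ESC markers were at an RPKM of 1 or more in every library, with summed levels from 2698 to 4004 RPKM. Of 13 fibroblast markers none was at 0 reads in any library. Their summed level was 1418 RPKM in treated and 219.5 RPKM in untreated KH2 cells, 509.5 RPKM in treated and 110.9 RPKM in untreated Erk KO cells at 96 hours, 78.5 RPKM at 48 hours and 79.0 RPKM with Dox.

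Fgf4 was the most abundant Fgf ligand gene in all 6 libraries. In KH2 cells it had 90.9 RPKM with PD0325901 (87.3 to 94.5), against 58.5 RPKM without it (55.7 to 61.4). In Erk KO cells without Dox for 96 hours it had 128 RPKM with PD0325901 (124 to 132), against 109 RPKM without it (105 to 112). Along the Dox withdrawal it was at 56.2 RPKM with Dox, 136 RPKM after 48 hours and 109 RPKM after 96 hours. The untreated KH2 library and the Dox-maintained library were thus the lowest, and their intervals overlapped, while every library with the inhibitor or without Dox lay above both. That overlap is for levels scaled to library totals. With TMM scaling (trimmed mean of M values) the log2 ratio of the Dox-maintained to the untreated KH2 library was 0.32.

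Fgf10, second among the 5 member ligands in the Erk KO libraries, had 5.22 RPKM in treated KH2 cells, against 2.72 RPKM in untreated KH2 cells. It had 10.97 RPKM in treated Erk KO cells, against 8.66 RPKM in untreated ones at 96 hours. During withdrawal the Fgf10 level was 3.603 RPKM with Dox, 5.88 RPKM at 48 hours and 8.66 RPKM at 96 hours, with separate intervals at each time. The level of this ligand was thus highest in the library with both treatments, and reads covered between 62.0% and 82.1% of its length of 4572 bases.

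The other 3 ligands were highest in KH2 cells. Fgf15 had 5.86 RPKM in treated KH2 cells, against 17.1 RPKM in untreated ones, which was 96 against 282 reads. In treated Erk KO cells Fgf15 was at 2.47 RPKM, against 2.94 RPKM in untreated Erk KO cells, and during withdrawal it was at 1.41 RPKM with Dox, 1.48 RPKM at 48 hours and 2.94 RPKM at 96 hours. All 4 Erk KO values of Fgf15 lay below both KH2 values.

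Fgf17 had 2.10 RPKM in treated KH2 cells, against 7.83 RPKM in untreated ones, which was 32 against 120 reads. It was at 0.663 RPKM in treated Erk KO cells, against 0.893 RPKM in untreated ones, from 11 and 15 reads, and at 1.83 RPKM with Dox and 1.65 RPKM at 48 hours. Untreated KH2 cells therefore stood apart, and the intervals of the treated KH2, Dox and 48 hour libraries overlapped.

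Fgf8, the subfamily partner of Fgf17, had 45 reads (3.95 RPKM, 2.88 to 5.28) in treated KH2 cells, against 38 reads (3.32 RPKM, 2.35 to 4.55) in untreated ones. In the Erk KO line it had 1 read in treated cells, against 6 reads in untreated cells at 96 hours, 5 reads at 48 hours and 0 reads with Dox. The exact interval of the count of 0 ended at 0.311 RPKM, and a floor of 3 reads was used where a bound on a fold is given. Between treated and untreated KH2 cells the intervals of Fgf8 thus overlapped, and those of Fgf17 were separate.

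**Figure D1:**
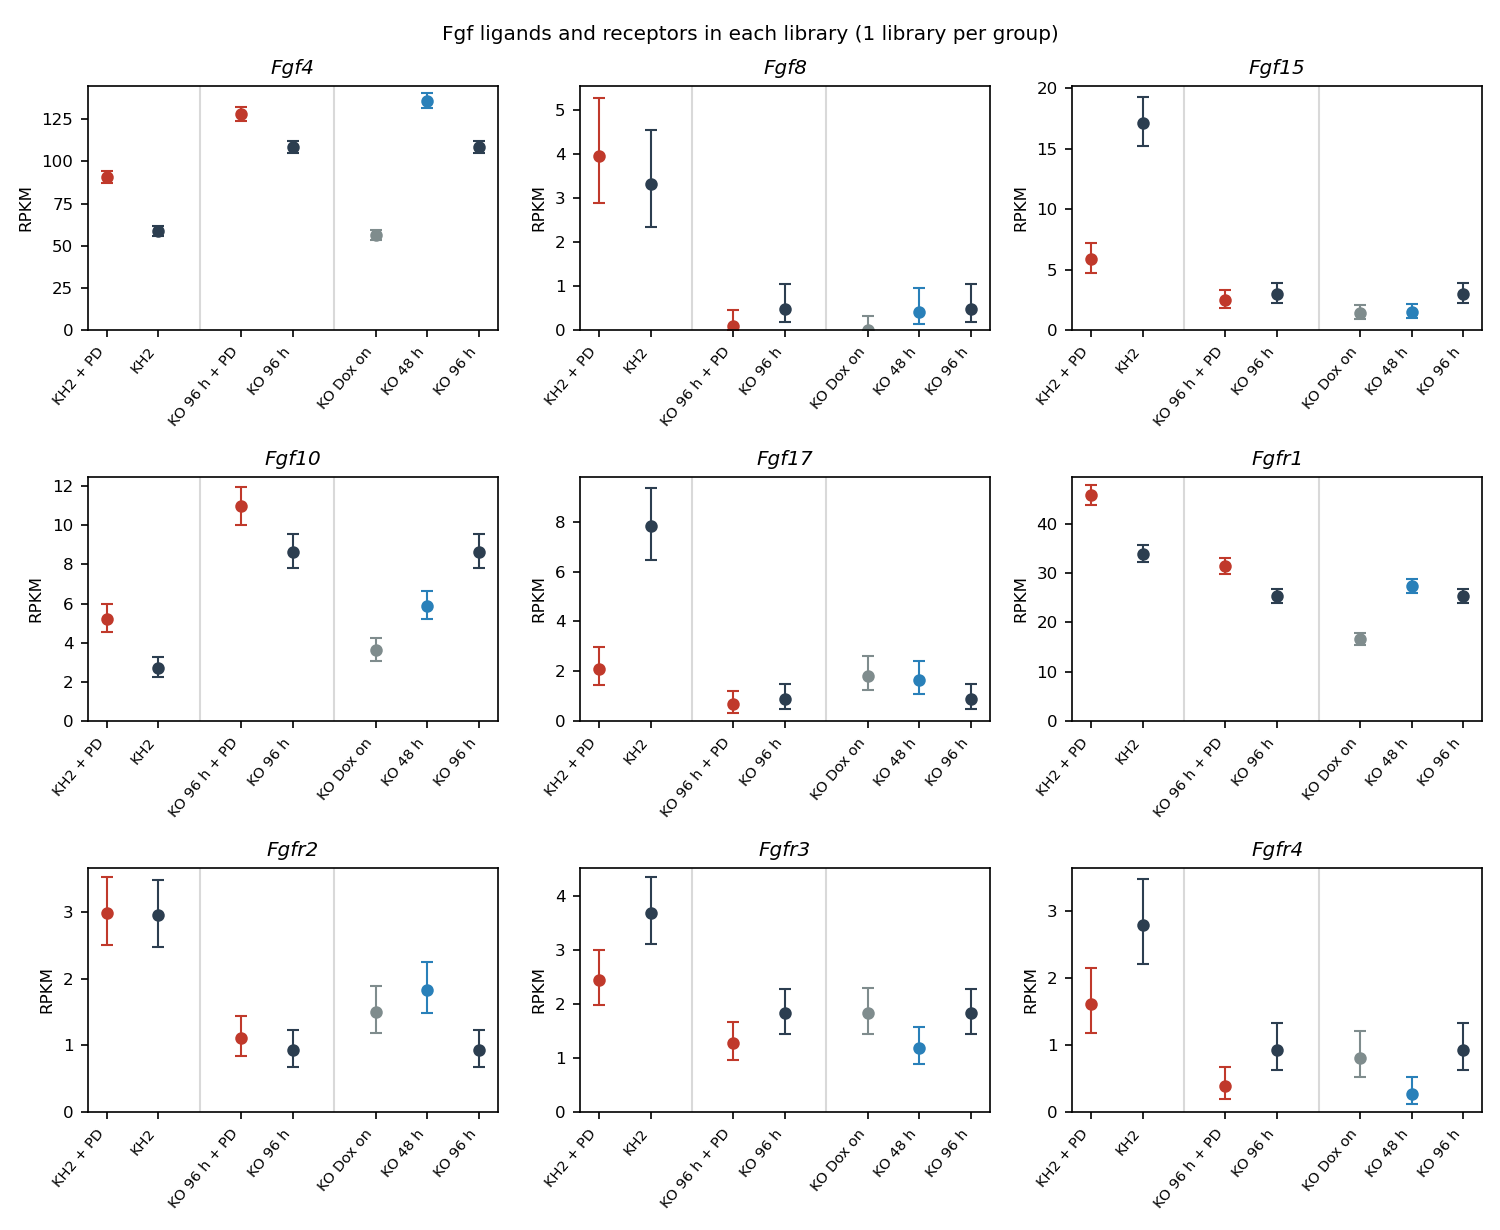
Level of each member in RPKM (vertical axes, from 0), 1 point per library with its exact 95% Poisson interval. The left pair of each panel is KH2 cells with PD0325901 (PD) and without, the middle pair is the Erk KO line (KO) without Dox for 96 hours with and without PD, and the right 3 points are the KO line with Dox, after 48 hours and after 96 hours without it, so the 96 hour library appears in both. Fgf4 reaches 136 RPKM at 48 hours, and Fgf15 and Fgf17 are highest in untreated KH2 cells.

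Among the receptors Fgfr1 was by far the most abundant. It had 45.8 RPKM in treated KH2 cells (43.9 to 47.8), against 33.9 RPKM in untreated ones (32.2 to 35.6). In Erk KO cells at 96 hours it had 31.4 RPKM with PD0325901 (29.8 to 32.96), against 25.2 RPKM without it (23.9 to 26.7). With Dox Fgfr1 was at 16.6 RPKM, and after 48 hours without Dox at 27.4 RPKM. The Dox-maintained library was the lowest of all 6 and treated KH2 cells the highest. The files sum all transcripts of a gene, so the epithelial and mesenchymal splice forms of the receptors are not separated.

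Fgfr2 had 2.98 RPKM in treated and 2.95 RPKM in untreated KH2 cells, and 1.11 RPKM in treated and 0.923 RPKM in untreated Erk KO cells. With Dox it was at 1.51 RPKM and at 48 hours at 1.83 RPKM. Fgfr3 had 2.45 RPKM in treated and 3.68 RPKM in untreated KH2 cells, 1.27 RPKM in treated and 1.82 RPKM in untreated Erk KO cells, 1.83 RPKM with Dox and 1.19 RPKM at 48 hours. Fgfr4, which with Fgfr2 marks the endoderm side of the early embryo, had 1.62 RPKM in treated and 2.80 RPKM in untreated KH2 cells. It had 0.388 RPKM in treated and 0.926 RPKM in untreated Erk KO cells, from 12 and 29 reads, and 0.811 RPKM with Dox and 0.262 RPKM at 48 hours. These 3 receptors were low throughout. In untreated KH2 cells the intervals of neighbours in the order Fgfr3, Fgfr2, Fgfr4 overlapped, so no order among them was resolved there.

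Fgf4 and Fgfr1 therefore made up most of the summed levels, more so outside untreated KH2 cells. Of the summed RPKM of 22 Fgf ligand genes, Fgf4 took 70.9% in treated and 53.6% in untreated KH2 cells, 80.0% in treated and 80.5% in untreated Erk KO cells at 96 hours, 78.7% with Dox and 87.9% at 48 hours. Of the 4 receptors, Fgfr1 took 86.7% in treated and 78.2% in untreated KH2 cells. It took 91.9% in treated and 87.3% in untreated Erk KO cells at 96 hours, 80.0% with Dox and 89.3% at 48 hours.

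**Figure D2:**
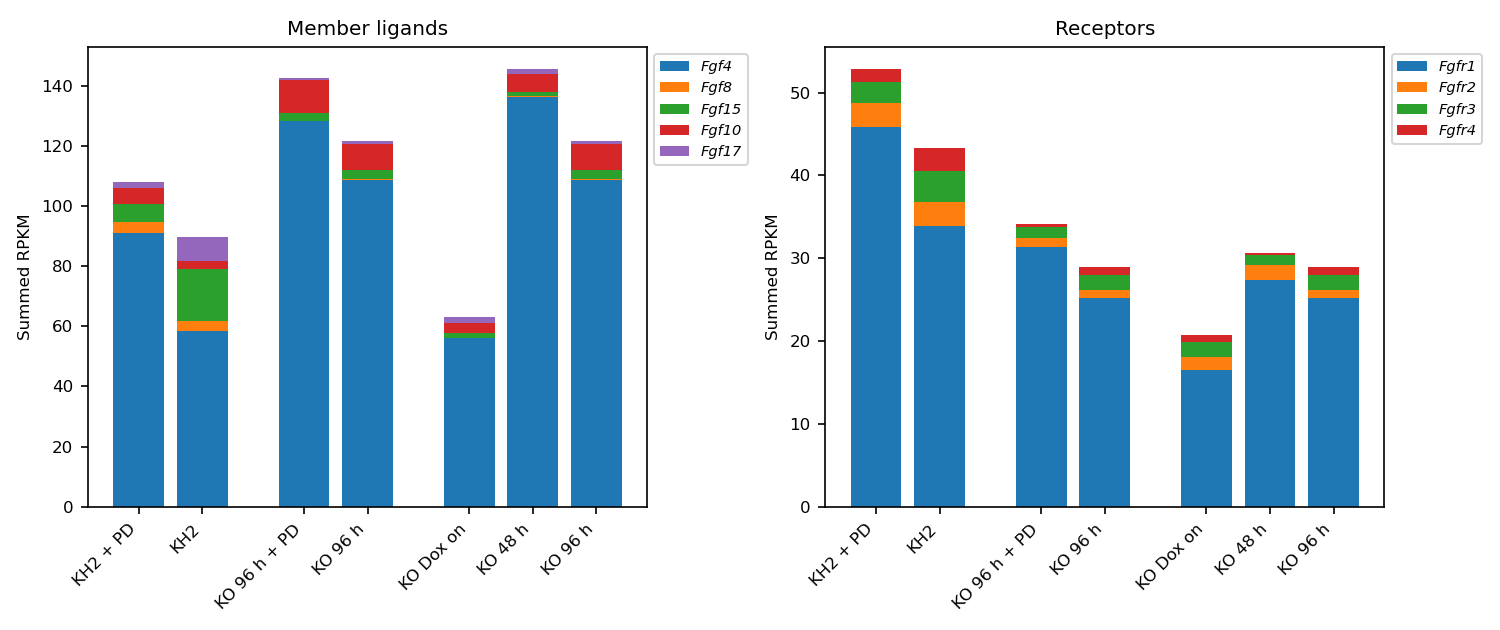
Stacked RPKM of the 5 member ligands (left) and the 4 receptors (right), bars from 0, in the same order of libraries as in the plot of single levels, without error bars. Fgf4 and Fgfr1 form most of every bar, and in untreated KH2 cells Fgf15 adds 17.1 RPKM to the 58.5 RPKM of Fgf4.

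The effect of Mek inhibition in wild-type cells was the first comparison named in the study's design. In KH2 cells Fgf15 was 2.92-fold lower with PD0325901 (2.31 to 3.73) and Fgf17 was 3.73-fold lower (2.51 to 5.70). Fgf10 was 1.92-fold higher (1.52 to 2.43), Fgf4 1.55-fold higher (1.46 to 1.66) and Fgfr1 1.35-fold higher (1.27 to 1.45), all below the 2-fold limit. Folds compare reads scaled to library totals, with exact 95% Clopper-Pearson intervals of counting error. The size rule asked for 20 reads or more in the pair, an RPKM of 1 or more where the gene was higher, a log2 ratio (RPKM plus 0.5) of 1 or more either way, and an interval that left out 1. All 9 members met the minimum of reads and level, 2 were lower, 0 higher and 7 were not past the limit. Over all 12787 genes tested 5.08% passed, 1.22% lower and 3.86% higher, with a median log2 ratio of −0.02.

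The members not past the limit went both ways. Fgfr3 had a log2 ratio of −0.50 and Fgfr4 of −0.64, and the intervals of both folds lay below 1. Fgf8 (0.22) and Fgfr2 (0.01) had intervals that included 1. The sign of Fgfr2 was negative, at −0.003, with TMM scaling (trimmed mean of M values). Fgf4 and Fgf15 lie side by side in RefSeq's gene order, next to Fgf3, which had 28 reads in either library. Of these 3 neighbours 1 was thus lower past the limit and 2 were not past it.

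In Erk KO cells at 96 hours without Dox the ratios of Fgf4, Fgf10, Fgf15, Fgfr1 and Fgfr3 lay nearer to 1 than in KH2 cells. That of Fgfr2, at a log2 ratio of 0.18, did not. Fgf10 was 1.27-fold higher with PD0325901 (1.11 to 1.45), Fgfr1 1.24-fold higher (1.15 to 1.34) and Fgf4 1.18-fold higher (1.13 to 1.24). Fgf15 was at 44 reads treated and 53 reads untreated, a fold of 0.841 (0.551 to 1.28). Of the 6 members that met the minimum none was past the limit, and 1.93% of 11920 genes were. Fgf8, Fgf17 and Fgfr4 did not meet it. Of these Fgfr4, on 12 against 29 reads, was 2.39-fold lower (1.18 to 5.135), and the intervals of Fgf8 and Fgf17 included 1. Fgfr3 had a fold of 0.697 (0.482 to 1.002).

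**Figure D3:**
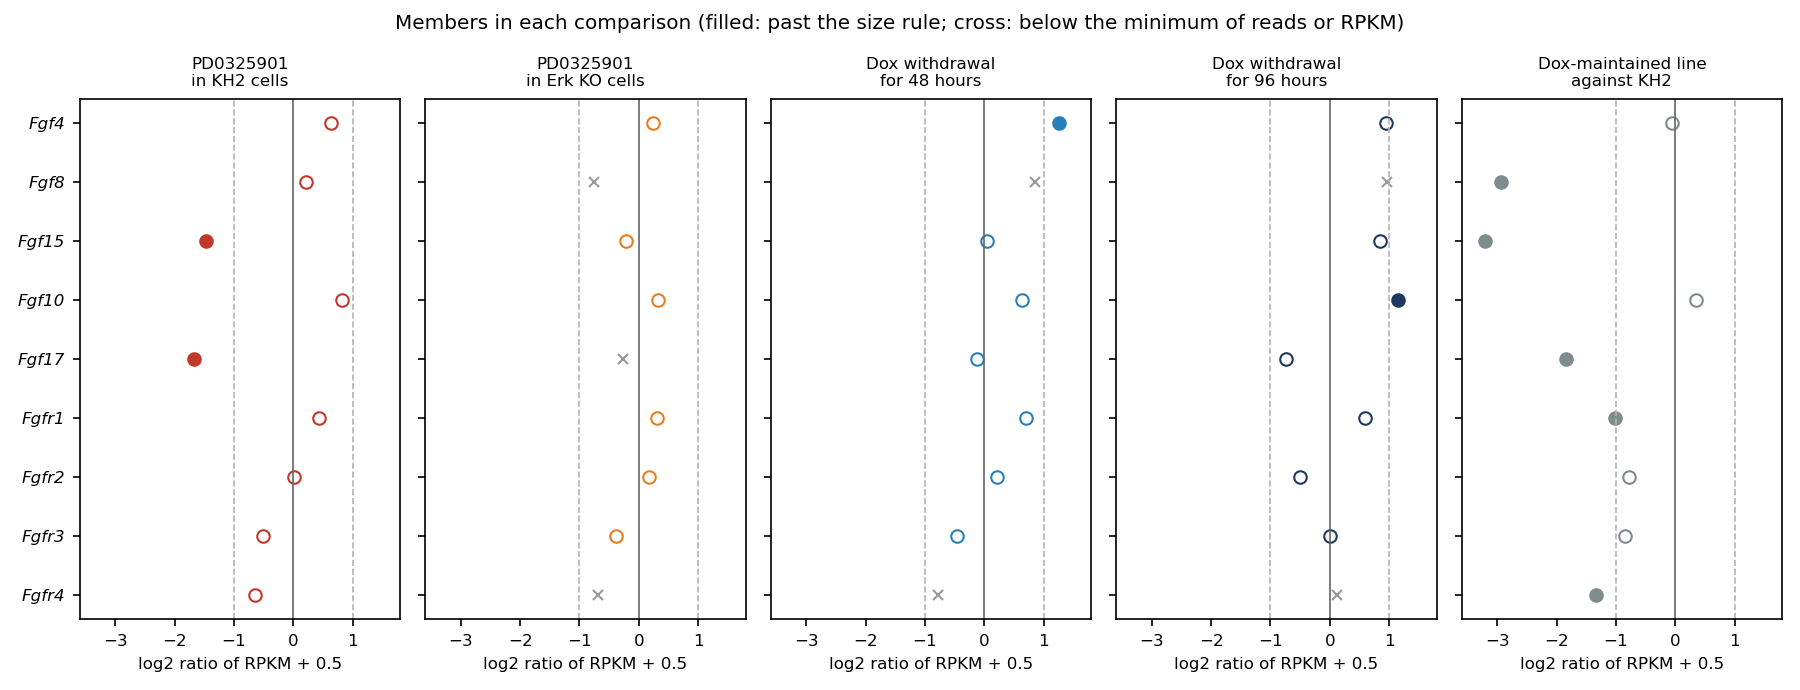
Log2 ratio of RPKM plus 0.5 (horizontal axes) of each member (rows) in the 5 comparisons of 1 library with another, with dashed lines at the 2-fold limit. Filled points passed the size rule, open points did not, and crosses lie below the minimum of reads or RPKM. With the inhibitor, Fgf15 and Fgf17 pass as lower in KH2 cells, and no member passes in Erk KO cells.

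The 2 pairs of treated and untreated libraries were then fitted together in edgeR, with cell state as a block. In this quasi-likelihood test 3 members rose and 2 fell at an adjusted p under 0.05 (Benjamini-Hochberg). Fgf4 rose by 0.43 on the log2 scale (SE 0.108, adjusted p 0.0198 by edgeR), with higher values in both pairs. Fgf10 rose by 0.59 (SE 0.161, adjusted p 0.0327 by edgeR), and Fgfr1 rose by 0.38 (SE 0.0980, adjusted p 0.0254 by edgeR), each higher in both pairs. Fgf17 was at −1.51 (SE 0.344, adjusted p 0.0115 by edgeR) and Fgf15 at −1.08 (SE 0.254, adjusted p 0.0146 by edgeR). Each had a lower value in both pairs, but in the Erk KO pair both intervals included 1. There the fold of Fgf17 was 0.74 (0.31 to 1.73), on 11 against 15 reads, and that of Fgf15 was 0.841 (0.551 to 1.28). In the same test 8.97% of 14782 genes passed, 6.05% higher and 2.92% lower.

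The remaining members did not pass. Fgfr4 was at −0.92 (SE 0.297, adjusted p 0.0686 by edgeR, and 0.0279 with DESeq2 size factors), Fgfr3 at −0.56 (SE 0.206, adjusted p 0.113 by edgeR), Fgfr2 at 0.12 (SE 0.206) and Fgf8 at −0.04 (SE 0.454). The fit has 1 residual degree of freedom, so its spread is mostly borrowed across genes. With DESeq2 none of the 5 calls held, nor without the block, nor with all 6 libraries. At an unadjusted p under 0.05 these 3 settings gave 5, 0 and 2 of the 9 members. Over all genes tested they gave 1340 of 14782, 270 of 14782 and 1690 of 15103.

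Whether the inhibitor acted differently in the 2 cell states was tested by an interaction over all 6 libraries, chosen after the values were seen. In it the untreated Erk KO libraries at 48 and 96 hours without Dox were taken as 1 state. The treated Erk KO library was thus set against both of them, and not against its matched 96 hour library alone. The difference between those 2 untreated libraries was the only spread within a gene that the fit could use. Fgf15 had the difference nearest to the threshold, a log2 fold change lower by 1.68 in KH2 than in Erk KO cells (log2 difference −1.68, SE 0.741, unadjusted p 0.0452, adjusted p 0.9999 by edgeR). Of the 9 members 0 passed in this edgeR test, with 1 at an unadjusted p under 0.05, where 110 of 14497 genes were under it. Fgf17 had a difference of −0.91 (SE 1.01) and Fgf4 of 0.62 (SE 0.409). Of 14497 genes 0.0% passed. In the matched pairs the log2 ratio (RPKM plus 0.5) of Fgf15 was −1.47 in KH2 and −0.21 in Erk KO cells. Its level in untreated Erk KO cells was 1.48 RPKM at 48 hours and 2.94 RPKM at 96 hours. No member was thus shown to differ in this test. Because it pooled the 48 and 96 hour libraries, it does not decide whether the ratios of the matched pairs differ.

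**Figure D4:**
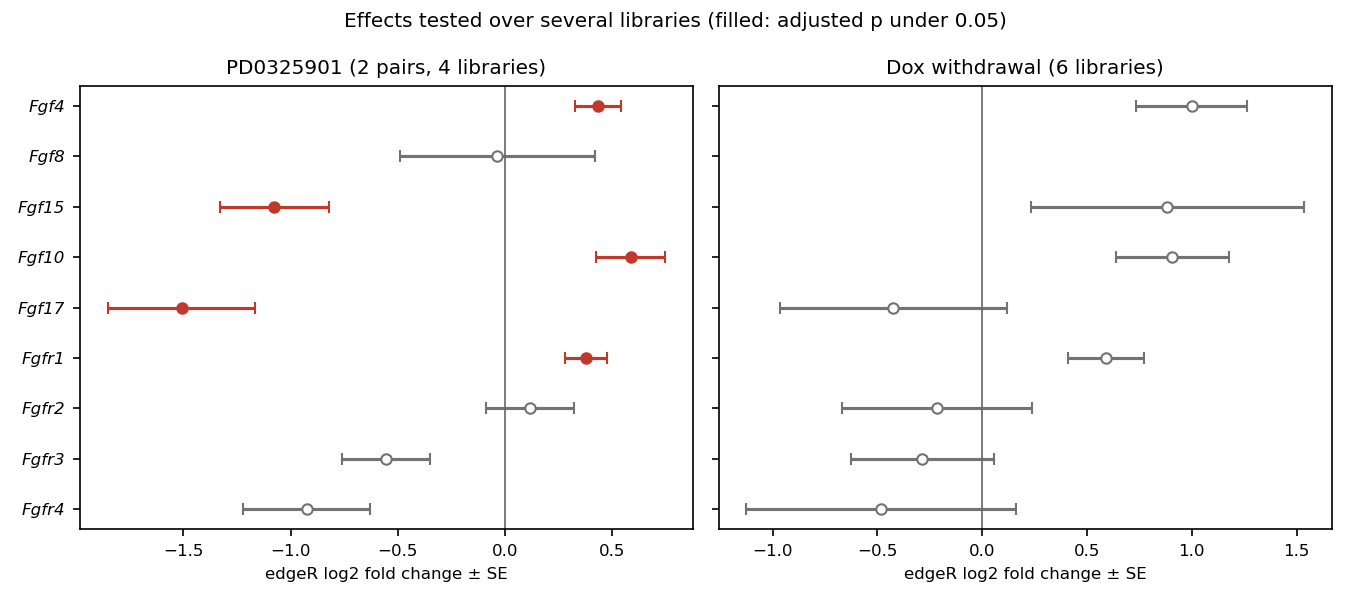
Log2 fold change by edgeR (horizontal axes, bars are ± SE) of each member (rows) for the inhibitor over 2 pairs of libraries (left) and for Dox withdrawal over 6 libraries (right). Filled red points have an adjusted p under 0.05. Fgf8 is not drawn on the right because it had 0 reads with Dox. On the left Fgf4, Fgf10 and Fgfr1 lie above 0 and Fgf15 and Fgf17 below it.

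Fibroblast markers moved with the inhibitor. Of 13 markers 7 were higher in treated KH2 cells and 7 higher in treated Erk KO cells, and 10 rose in the common edgeR test, with none lower in any of these. Fgf7, a ligand made by mesenchyme like Fgf10, rose by 0.68 (SE 0.173, adjusted p 0.0229 by edgeR), from 196 against 112 reads in KH2 cells and 195 against 135 in Erk KO cells. The part of fibroblast RNA in the higher Fgf10, Fgf7 and Fgfr1 with PD0325901 was not tested. In bulk RNA, more cells of a type and more RNA per cell cannot be told apart. The marker sum at 48 hours without Dox was 78.5 RPKM, against 79.0 RPKM with Dox, and there Fgf10 was 1.63-fold higher and Fgfr1 1.65-fold higher. At 96 hours the sum was 110.9 RPKM, against 79.0 RPKM with Dox, with a list median log2 ratio of 0.38 and 1 of 13 markers, Dcn, past the limit as higher (4.15-fold), and there Fgf10 was 2.40-fold higher. The part of fibroblast RNA in that difference was not tested.

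The third comparison of the design, Erk loss, set 48 hours without Dox against the Dox-maintained line. Fgf4 was 2.42-fold higher (2.28 to 2.57), with 4002 reads after withdrawal and 1603 with Dox. Fgfr1 was 1.65-fold higher (1.51 to 1.81) and Fgf10 1.63-fold higher (1.33 to 2.01), both under the 2-fold limit. Fgfr3 was 1.54-fold lower (1.06 to 2.25) and Fgf15, Fgf17 and Fgfr2 had intervals that included 1. Fgfr4, under the minimum level, was 3.09-fold lower (1.345 to 7.97), on 8 against 24 reads. Of the 7 members that met the minimum, Fgf4 was the 1 past the limit, and over all 11385 genes 4.89% passed, 2.77% higher and 2.13% lower.

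After 96 hours Fgf10 was 2.40-fold higher than with Dox (1.99 to 2.91) and was the 1 member past the limit of the 7 that met the minimum, where 9.68% of 11804 genes passed, 7.62% higher and 2.07% lower. The log2 ratio of Fgf4 was 0.94, a fold of 1.93 (1.82 to 2.05), under the limit. Fgf15 was 2.09-fold higher (1.27 to 3.54), from 53 against 24 reads, and Fgfr1 was 1.52-fold higher (1.39 to 1.67). Fgfr2 was 1.63-fold lower (1.12 to 2.40) and Fgf17 was 2.05-fold lower (1.06 to 4.11), on 15 against 29 reads. The median gene was at a log2 ratio of 0.05 when scaled to totals and at −0.07 with DESeq2 size factors, under which Fgf10, at 1.04, still passed. The 48 and 96 hour comparisons share the Dox library.

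At 96 hours 5 of 9 primitive endoderm markers were lower (Gata6, Dab2, Lama1, Pdgfra and Sox7), and their summed level was 23.7 RPKM, against 67.2 RPKM with Dox and 51.8 RPKM at 48 hours. Fgfr2, known as a receptor of that lineage, stood at 0.923 RPKM at 96 hours, against 1.51 RPKM with Dox and 1.83 RPKM at 48 hours. Fgfr4 was at 0.926 RPKM at 96 hours, against 0.811 RPKM with Dox and 0.262 RPKM at 48 hours, and so was not lower at 96 hours. The part of such cells in the levels of both receptors was not tested.

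A withdrawal effect common to both times was tested over all 6 libraries with edgeR, with the 48 and 96 hour libraries as 1 state. That state included the library treated with PD0325901, whose effect was taken as the same in KH2 and Erk KO cells. The state with Dox was 1 library. No member passed. Fgf4 had a log2 difference, without Dox minus with Dox, of 1.0 (SE 0.265, unadjusted p 0.00661, adjusted p 0.157 by edgeR). Fgf10 was at 0.91 (SE 0.270, adjusted p 0.187 by edgeR) and Fgfr1 at 0.59 (SE 0.181, adjusted p 0.201 by edgeR). These were the 3 members at an unadjusted p under 0.05 by edgeR, where 2288 of all 14497 genes were under it. At the adjusted threshold 0.0828% of the 14497 genes passed, 0.0414% higher and 0.0414% lower. DESeq2 called Fgf4 higher (log2 fold change 0.98, SE 0.278, adjusted p 0.0171 by DESeq2), and no other member.

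The Dox-maintained line was set against KH2 cells to show what the line carried before withdrawal. Fgf8, Fgf15, Fgf17, Fgfr4 and Fgfr1 were lower, where 24.2% of 12421 genes passed, 21.4% lower and 2.75% higher. Fgf8 was at 0 reads against 38, at least 13.1-fold lower with 3 reads as the floor of the library, a bound that leaves out the counting error of the 38 reads. The exact interval of the fold, which includes it, began at 10.2-fold lower. Fgf15 was 12.2-fold lower (8.01 to 19.3), Fgf17 4.28-fold lower (2.84 to 6.67), Fgfr4 3.45-fold lower (2.16 to 5.70) and Fgfr1 2.04-fold lower (1.87 to 2.23). Fgf4 was at a fold of 0.961 (0.896 to 1.03) and Fgf10 was 1.33-fold higher (1.03 to 1.70).

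This comparison depended on scaling, as the median gene was at a log2 ratio of −0.37 when scaled to totals and at −0.01 with TMM scaling. Of the genes that passed, 11.4% were higher when scaled to totals, 39.0% with TMM and 44.7% with DESeq2 size factors. With TMM the log2 ratio of Fgfr1 was −0.64, no longer past the limit, and that of Fgf4 was 0.32. With DESeq2 size factors Fgfr4, at −0.999, also fell short. Fgf8, Fgf15 and Fgf17 passed under all 3 scalings. The fibroblast marker sum was 79.0 RPKM in the Dox-maintained line and 219.5 RPKM in KH2 cells, with 6 of 13 markers lower, and its part in the lower Fgfr1 was not tested. Of 6 primitive streak markers 3 were also lower (T, Mixl1 and Wnt3), and their summed level was 1.496 RPKM in the Dox-maintained line, against 17.7 RPKM in KH2 cells. The part of such cells in the levels of Fgf8 and Fgf17, which that tissue makes, was not tested.

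The rest of the pathway was described by lists. Of 17 other Fgf ligand genes 5 met the minimum in KH2 cells with the inhibitor and 1 was lower. This was Fgf5, the ligand of formative cells, at 8 reads treated and 43 untreated, 5.35-fold lower (2.49 to 13.2). In Erk KO cells and during withdrawal 3 other ligands met the minimum and none passed. Against KH2 cells the Dox-maintained line had 2 lower, Fgf5 with 2 reads against 43, and Fgf3 with 11 against 28. Among 8 co-receptor and binding protein genes Flrt2, an adhesion protein of the Flrt family, was 3.83-fold higher in treated KH2 cells (3.10 to 4.78) and 2.39-fold higher in treated Erk KO cells (2.05 to 2.79). Fgfbp1, which releases Fgf ligands from the matrix, was lower at 96 hours without Dox, at 4 reads against 50 with Dox. Fgfrl1, a receptor that lacks the kinase, was 2.47-fold lower in the Dox-maintained line than in KH2 cells (1.74 to 3.55). That fold, and the lower Fgf5 and Fgf3 in the same comparison, are for levels scaled to totals. With that scaling 21.4% of all genes were lower, and the median gene was at a log2 ratio of −0.37.

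Some genes of heparan sulfate, the sugar chain that Fgf binding requires, were higher with the inhibitor. Of 24 genes 20 met the minimum in treated KH2 cells, with a median log2 ratio of 0.41 against −0.02 for all genes. Of the 20, 6 were higher and 0 lower, where 3.86% of all genes were higher and 1.22% lower. Of these 6, Sdc3, Hs6st1, Sulf1 and Sdc2 had the most reads. Sdc3, a syndecan core protein, was 2.46-fold higher (2.22 to 2.72), Hs6st1, a sulfotransferase, 2.05-fold higher (1.89 to 2.24), Sulf1, which removes sulfate from the chains, 2.27-fold higher (2.04 to 2.53) and Sdc2 2.58-fold higher (2.23 to 3.001). In treated Erk KO cells Sulf1 was the 1 gene of 20 that passed, 2.598-fold higher (2.23 to 3.03), where 1.93% of all genes passed. The median of the list was 0.37. In the common edgeR test 10 of 20 rose and 0 fell, where 6.05% of all genes rose and 2.92% fell. Of the 10, Sulf1 had the lowest adjusted p (log2 fold change 1.27, SE 0.112, adjusted p 1.94e-06 by edgeR). Fibroblast markers were higher in the same libraries, and their part in the heparan sulfate genes was not tested.

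During withdrawal 19 heparan sulfate genes met the minimum at either time. Hs6st1 was the 1 gene past the limit at 48 hours, 2.31-fold higher (2.13 to 2.50), where 4.89% of all genes passed. At 96 hours 9.68% of all genes passed. There Sdc3 was higher, 2.48-fold (1.98 to 3.11), and Sulf1 lower, 2.47-fold (2.12 to 2.89). Against KH2 cells 5 of 20 were lower in the Dox-maintained line (Sdc3, Sdc4, Gpc1, Gpc2 and Gpc3), where 21.4% of all genes were lower when scaled to totals. Sulf1 was thus higher with the inhibitor and lower at 96 hours without Dox.

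The 12 receptor adaptor genes, such as Frs2 and Grb2, carry the signal from the receptor to Ras. None passed the size rule with the inhibitor in either cell state or at either time of withdrawal, with medians between −0.10 and 0.06. Gab2 rose in the common edgeR test (log2 fold change 1.04, SE 0.243, adjusted p 0.0131 by edgeR) and Frs3 was lower in the Dox-maintained line than in KH2 cells. Of 16 feedback inhibitor and target genes 15 met the minimum in each comparison. With the inhibitor 6 were lower in KH2 cells and 4 in Erk KO cells, and after withdrawal 11 were lower at 48 hours and 8 at 96 hours, with 0 higher in these 4 comparisons. Spry4, a Sprouty inhibitor of the route, was at 51 reads in treated and 1316 in untreated KH2 cells, 25.7-fold lower (19.4 to 34.7), and at 6 reads in treated and 294 in untreated Erk KO cells. Dusp6, the Erk phosphatase, was 5.0-fold lower in treated KH2 cells (4.25 to 5.91) and 3.21-fold lower in treated Erk KO cells (2.61 to 3.99). Spred1 and the Ets factor gene Etv4 were the others with the most reads in KH2 cells, 2.08-fold and 9.28-fold lower, and Myc and Etv4 also passed in Erk KO cells, 3.06-fold and 4.66-fold lower. After withdrawal Egr1, an immediate early gene, was 21.6-fold lower at 48 hours and 5.76-fold lower at 96 hours. In the common edgeR test 10 of the 16 fell and 2, Egr1 and Fos, rose. Fos, another immediate early gene, rose by 0.89 with the inhibitor (SE 0.108, adjusted p 6.32e-05 by edgeR), and in the withdrawal test it was the 1 gene of this list that fell, at −2.00 (SE 0.177, adjusted p 0.0363 by edgeR).

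**Figure D5:**
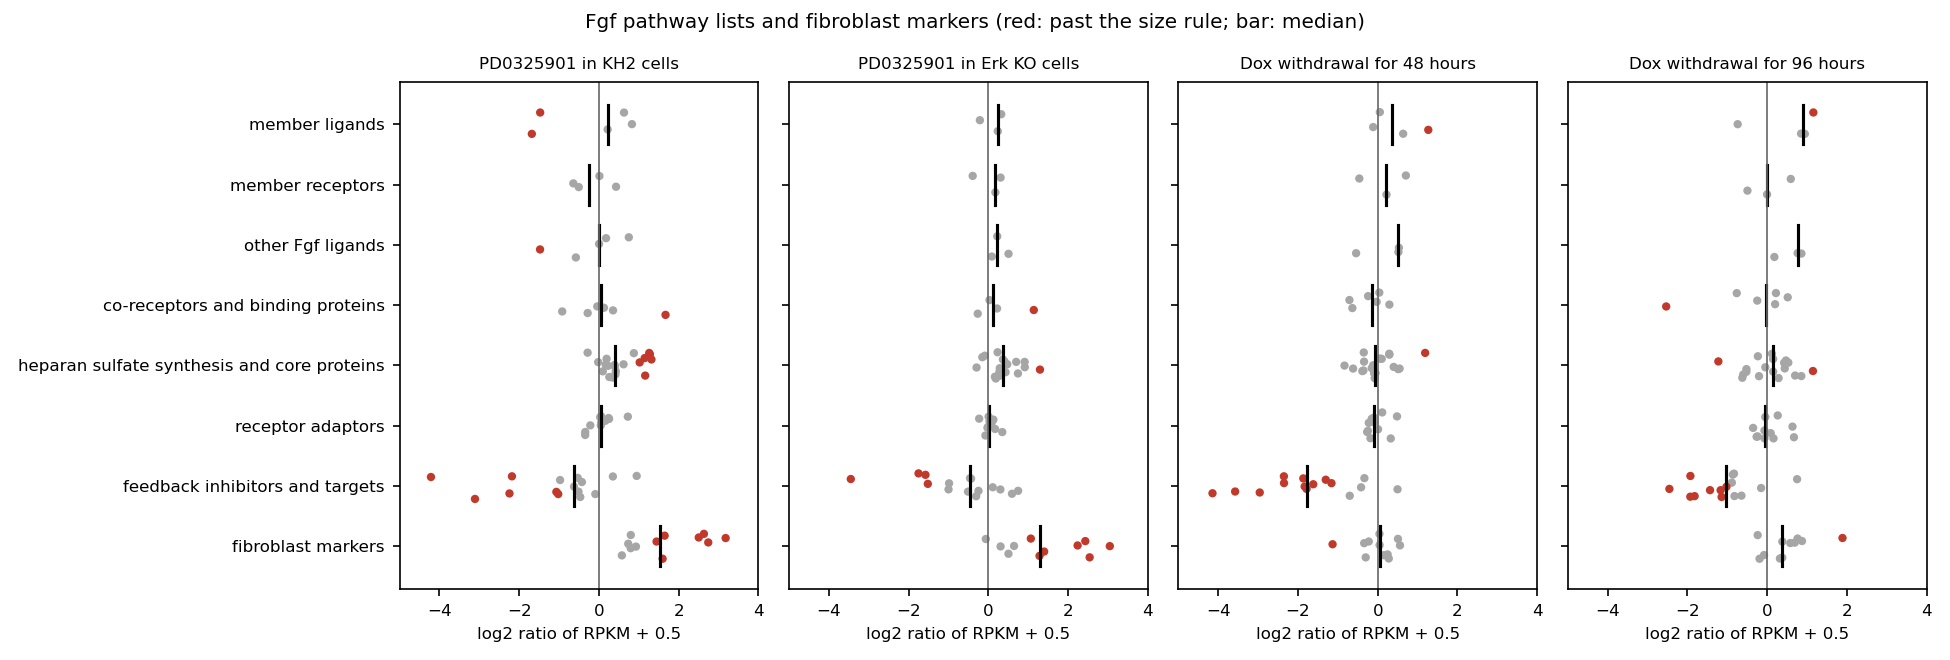
Log2 ratio of RPKM plus 0.5 (horizontal axes) of every gene that met the minimum in the member, pathway and fibroblast lists (rows), for the inhibitor in 2 cell states and for 2 times without Dox. Red points passed the size rule and black bars are list medians. The median of the feedback genes lies left of 0 in all 4 panels, with 11 genes past the limit at 48 hours, and that of the fibroblast markers lies right of 0 in both inhibitor panels.

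Genes with the most similar profiles were sought for each member by the root mean square difference of centred log2 values (RPKM plus 0.5) over the 6 libraries, among 9477 genes. For Fgf15 they included Amn (0.263) and Adgrb2 (0.275). For Fgf17 they were Bcl6b (0.272), the kinase gene Plk3 (0.274) and the imprinted gene Phlda2 (0.275), and for Fgfr4 Kdf1 (0.109), the proteasome gene Psmb10 (0.144) and Sigirr (0.166). Fgf4, Fgf10 and Fgfr1 varied less than the range of 2 log2 units first asked for, and were added after their values were seen. Arih2 (0.0803), Atg13 (0.0904) and Ifitm1 (0.0964) were nearest to Fgf4, and the naive factor gene Nanog was at rank 94 (0.256). Pcsk6, which encodes a proprotein convertase, was nearest to Fgf10 (0.0462), followed by Myof (0.124) and Crabp2 (0.128), and Sbk1 (0.0522), Dnpep (0.0528) and the Mek1 gene Map2k1 (0.0800) to Fgfr1. Pcsk6 had 21.8 RPKM in treated and 11.3 RPKM in untreated KH2 cells, 42.5 RPKM in treated and 35.5 RPKM in untreated Erk KO cells at 96 hours, 22.4 RPKM at 48 hours and 15.1 RPKM with Dox.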

How the data were processed

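The 6 polyA libraries were read from 1 end, 50 bases, per the labels' protocols. The deposited counts are of uniquely mapped reads for each gene, per the file headers, and the deposited RPKM values equal these counts per kilobase and 1e6 library reads on every gene. The deposited coverage is the percent of gene length with reads, by the authors. The submitters' processing notes name mm9; an aligner is not given in the sources used here, nor an annotation. Files were joined by gene ID, genes without a row were set to 0 reads, 4 files lacked symbols, and 18805 of 18857 IDs matched RefSeq (GRCm38.p6), used for names, gene order and promoters. Strand was not recorded, and RefSeq's lncRNA genes overlap Fgf15, Fgf17 and Fgfr1, whose reads cannot be told apart from theirs.

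The 5 comparisons of 1 library with another have no p-value. The common tests used edgeR 4.0.16 (glmQLFit, glmQLFTest, TMM, Benjamini-Hochberg, threshold 0.05) in R 4.3.3, with at least 20 reads over 4 libraries for the inhibitor and 30 over 6 for withdrawal, which left 1 and 2 residual degrees of freedom. SEs are the fold change over the root of F. DESeq2 was 1.42.0, and the edgeR and pair scripts were tested on simulated data. Alternatives were pseudocounts of 0.1 and 1 RPKM, TMM or DESeq2 scaling, other minimums, other tools and other library sets. Intervals cover counting error only, as no molecular identifiers are named.

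Members and gene lists were chosen with earlier results of these data known. All members were named, and of each list all passing genes up to 5 per comparison, otherwise the 4 with the most reads; fibroblast, feedback and line comparison genes are mostly given as counts. Similar genes had an RPKM of at least 5, with the 3 nearest named for members with at least 100 reads and a range of 2 log2 units, later 1; those of Fgfr2 and Fgfr3, and 1 of those of Fgf15, are not reported here. Trophectoderm and neural markers were listed as other cell types.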

Additional observations from a re-analysis of the deposited data

How the results depend on the processing

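Pairs in the inhibitor test are the treated and untreated library of 1 cell state, since groups of 1 library have no replicate numbers. Counts of members past the limit in the 5 comparisons stayed within 1.5-fold of the reported ones under other pseudocounts, scalings and minimums, with 2 exceptions. With a pseudocount of 0.1 RPKM 2 members, Fgf10 and Fgf15, were higher at 96 hours without Dox, and with DESeq2 size factors 3 were lower in the Dox-maintained line. In the common PD0325901 test the counts were 0 higher and 0 lower with DESeq2, without the cell state block and with all 6 libraries, and 3 higher and 3 lower with DESeq2 size factors in edgeR, where Fgfr4 also passed (adjusted p 0.0279). The sign of Fgfr2 turned to −0.21 with all 6 libraries, and that of Fgf8 to 0.0731 without the block. The adjusted p of Fgf4 ran from 0.00345 to 1.0 over the alternatives of that edgeR or DESeq2 test and that of Fgf15 from 7.89e-05 to 1.0. Over all genes that test called 894 higher and 432 lower, against 338 and 103 with DESeq2, 0 and 0 without the block, 103 and 15 with all 6 libraries and 1191 and 739 with DESeq2 size factors in edgeR. In the withdrawal test DESeq2 called 1 member higher, and over all genes 269 higher and 157 lower, against 6 and 6 with edgeR and 220 and 164 with edgeR on every gene with a read. In the Dox-maintained line 342 genes were higher when scaled to totals, 943 with TMM and 1086 with DESeq2 size factors, against 2662, 1475 and 1341 lower. The causes were not tested. TMM factors set without the fibroblast markers and the genes higher in both inhibitor pairs, added after the data were seen, gave 3 higher and 2 lower members. Fgf8, Fgf17 and Fgfr4 had at most 29 reads in each Erk KO library, which limits what could be detected there.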

Other observations

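Neural and trophectoderm markers were measured as a check of other cell types. Of 6 neural markers Pax6 and Sox1 were higher and Tubb3 lower in the Dox-maintained line than in KH2 cells. At 96 hours without Dox Nes was higher and Pax6 and Sox1 were lower than with Dox. Sox1 had 55 reads at 96 hours, against 159 reads with Dox, and Pax6 had 16 reads, against 99. Fgf15, which is made in the embryonic brain, was at 53 reads at 96 hours, against 24 with Dox. Of 7 trophectoderm markers Gata3 and Tfap2c were higher at 48 hours, and at 96 hours Gata3 was higher and Krt8 lower. Gata3 was at 62 reads at 48 hours and 65 reads at 96 hours, against 15 with Dox. Cdx2, a trophectoderm factor, was lower in treated KH2 cells, at 18 against 54 reads.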
